A study of Mus musculus with 6 samples.

Results

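Rarres1, Grm8, Nlrp12 and Susd4 are 4 of the 37991 genes counted in liver and liver tumours of mice fed a high-fat diet. They were chosen from these same libraries, because they were expressed in control liver and far lower or near absent in liver that had lost KAP1, in its tumours, or in both. The choice set no numeric limit, so the differences between groups given here describe the genes and are not tested. All 4 have an Ensembl identifier in the count tables, ENSMUSG00000049404, ENSMUSG00000024211, ENSMUSG00000078817 and ENSMUSG00000038576 in the order above, and all 4 passed the filter on low counts. Their counts in the control livers, where they are high, were enough to pass, so passing carries no information about the other groups.

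The study sequenced RNA of 3 groups with 2 libraries each. Control livers came from mice with the TgAlbCre transgene alone, in which the promoter of albumin drives Cre in hepatocytes. KAP1-deleted livers and primary liver tumours came from TgAlbCreKap1lox mice, in which that Cre inactivates the gene of KAP1. The labels' codes show 4 mice: each tumour shares a mouse with the KAP1-deleted liver of its replicate number, and each control library is a mouse of its own. All mice received the high-fat diet for 27 weeks and were killed at 35 weeks of age. Their sex is not stated in the labels, and p-values of other genes measure only the spread between these few samples. Cre driven by the albumin promoter leaves the gene intact in blood-derived, endothelial and stellate cells of the liver.

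KAP1, encoded by Trim28, is a co-repressor that KRAB zinc finger proteins bring to DNA, where it recruits enzymes that build repressive chromatin. Rarres1 encodes a membrane protein related to latexin that retinoic acid induces in skin cells. Grm8 encodes a metabotropic glutamate receptor that couples to inhibitory G proteins and is best known from nerve endings. Nlrp12 encodes a NOD-like receptor of myeloid cells that restrains NF-kappaB signalling. Susd4 encodes a membrane protein with sushi domains, the module of complement regulators, and inhibits complement activation.

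The 4 genes lie on 4 chromosomes, and the upstream sequences are shown because genes with a shared pattern can be compared by what lies before their start. RefSeq promoter tables of build GRCm38.p6 listed 1 start site for Rarres1, 3 for Grm8, 1 for Nlrp12 and 2 for Susd4. The 250 bases before the most upstream start site are printed 5′ to 3′ on the strand of the gene. Capitals mark matches to 6 motifs searched on both strands and spelled out after the sequences. The windows are chr3:67515524-67515773 on the minus strand for Rarres1, chr6:28135147-28135396 on the minus strand for Grm8, chr7:3249741-3249990 on the minus strand for Nlrp12 and chr1:182763966-182764215 on the plus strand for Susd4.
Rarres1: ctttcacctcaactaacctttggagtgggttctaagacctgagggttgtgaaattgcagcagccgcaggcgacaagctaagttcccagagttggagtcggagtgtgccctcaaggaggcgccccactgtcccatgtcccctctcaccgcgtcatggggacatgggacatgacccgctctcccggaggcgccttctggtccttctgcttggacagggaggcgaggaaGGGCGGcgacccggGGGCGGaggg
Grm8: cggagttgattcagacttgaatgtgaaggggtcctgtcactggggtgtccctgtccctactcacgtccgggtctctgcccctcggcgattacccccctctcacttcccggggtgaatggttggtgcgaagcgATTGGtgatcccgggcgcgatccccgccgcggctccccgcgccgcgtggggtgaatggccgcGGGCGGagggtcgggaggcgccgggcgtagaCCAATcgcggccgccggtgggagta
Nlrp12: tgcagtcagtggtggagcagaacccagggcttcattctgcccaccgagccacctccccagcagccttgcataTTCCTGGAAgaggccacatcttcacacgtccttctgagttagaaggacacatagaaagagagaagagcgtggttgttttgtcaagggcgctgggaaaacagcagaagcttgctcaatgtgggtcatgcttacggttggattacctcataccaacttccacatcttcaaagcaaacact
Susd4: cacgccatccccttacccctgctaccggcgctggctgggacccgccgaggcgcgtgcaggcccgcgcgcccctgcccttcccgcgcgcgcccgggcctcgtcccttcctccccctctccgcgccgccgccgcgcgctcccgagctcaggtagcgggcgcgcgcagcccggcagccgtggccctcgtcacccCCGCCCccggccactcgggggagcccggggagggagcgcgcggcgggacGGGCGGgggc

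The upstream windows differed in composition. Susd4 had a GC content of 82.8%, higher than in 99.5% of 32851 promoter windows of the same length, Grm8 68.4%, Rarres1 62.4% and Nlrp12 50.8%, beside a median of 52.4% over all windows. The ratio of observed to expected CpG was 0.999 for Grm8, 0.976 for Susd4, 0.579 for Rarres1 and 0.31 for Nlrp12, with a median of 0.373. These values hold for the printed windows only. Start site 2 of Susd4 had a GC content of 61.6% and a CpG ratio of 0.422. Start sites 2 and 3 of Grm8 had 54.4% and 43.6%, with ratios of 0.473 and 0.169. Which start site the livers used was not determined. The GC box, searched as GGGCGG, was found 2 times before Rarres1, 2 times before Susd4 and 1 time before Grm8, and 32.7% of all windows hold it. Grm8 also had 2 matches to the CCAAT box, spelled as in its name, which 33.8% of windows hold. Nlrp12 had neither. Its 1 match was to the STAT motif TTCNNNGAA, which begins at base -178 from the start site and is present in 7.02% of windows. The TATA box was searched as TATAAA, and no printed window holds it, beside 12.4% of all windows. The nuclear receptor motif AGGTCA was absent from them too, beside 14.0% of windows. So was DR5, a pair of that motif with 5 bases between the copies to which retinoic acid receptors bind and which therefore overlaps it, beside 0.00913% of windows. No motif of the search was common to all 4 windows.

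Levels are given as CPM, the counts of a gene scaled to the library's reads in genes and by TMM, and Trim28 itself checks the labels. Control livers 1 and 2 gave 32.5 and 35.9 CPM of Trim28, KAP1-deleted livers 1 and 2 gave 5.06 and 6.01, and tumours 1 and 2 gave 5.22 and 4.59. By edgeR's quasi-likelihood test with Benjamini-Hochberg adjustment Trim28 fell from control to KAP1-deleted liver by 2.63 on the log2 scale (adjusted p = 0.00393) and from control liver to tumour by 2.80 (adjusted p = 0.000432). From KAP1-deleted liver to tumour the value was -0.18 (adjusted p = 0.573), and 0.36 when libraries were scaled by gene totals alone. Genes held 39723997 to 62178752 counts per library.

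Rarres1 was the gene with the widest range. Control livers 1 and 2 gave 63.9 and 81.6 CPM, KAP1-deleted livers 1 and 2 gave 1.27 and 2.33, and tumours 1 and 2 gave 0.166 and 0.552. These values rest on 2216 and 4809 reads, 56 and 110 reads, and 12 and 29 reads. The 3 groups did not overlap, and the order control liver, KAP1-deleted liver, tumour held for each pair of libraries. Group means were 72.8 ± 12.5 CPM (SD, n = 2), 1.80 ± 0.748 (SD, n = 2) and 0.359 ± 0.273 (SD, n = 2). KAP1-deleted liver thus kept 2.47% of the control mean and tumour 0.493%. On the log2 CPM scale with a prior count of 2, KAP1-deleted liver minus control liver was -5.36 ± 0.65 (SD of the difference), tumour minus KAP1-deleted liver -2.34 ± 1.24, and tumour minus control liver -7.70 ± 1.11. Here and for the other genes, this SD combines the SDs of the 2 groups as if they were independent. For tumour minus KAP1-deleted liver it ignores the shared mouse and is not the spread of within-mouse differences. Relative to the control mean, KAP1-deleted liver and tumour stood at -5.79 and -8.47 in replicate 1, and at -4.93 and -6.93 in replicate 2. Over pairs of libraries, the fold between control and KAP1-deleted liver ran from 27.4 to 64.2. Between control liver and tumour it ran from 116 to 493.

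Nlrp12 had a level near that of Rarres1 in control liver by CPM. Control livers 1 and 2 had 71.2 and 50.1 CPM (2468 and 2951 reads), KAP1-deleted livers 6.24 and 2.88 (275 and 136 reads), and tumours 0.897 and 1.48 (65 and 78 reads). The groups were again separate in the order control liver, KAP1-deleted liver, tumour. The means were 60.6 ± 14.9 CPM (SD, n = 2), 4.56 ± 2.38 (SD, n = 2) and 1.19 ± 0.415 (SD, n = 2). The mean in KAP1-deleted liver was 7.52% of the control mean, 13.3-fold lower, and the tumour mean was 1.96% of it. On the log2 scale the difference from control liver was -3.80 ± 0.86 in KAP1-deleted liver and -5.65 ± 0.61 in tumour, and tumour stood -1.84 ± 0.93 from KAP1-deleted liver.

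Grm8 was the faintest of the 4 and the one closest to its end level in KAP1-deleted liver. Control livers 1 and 2 held 4.47 and 2.02 CPM (155 and 119 reads), KAP1-deleted livers 0.136 and 0.169 (6 and 8 reads), and tumours 0.0828 and 0.114 (6 and 6 reads). KAP1-deleted livers and tumours were both far under the control livers. The exact 95% counting intervals of the KAP1-deleted livers, 0.05 to 0.296 and 0.0731 to 0.334 CPM, took in both tumour values, and the intervals of the tumours, 0.0304 to 0.18 and 0.0419 to 0.249, took in both values of the KAP1-deleted livers. A difference between the KAP1-deleted livers and tumours was therefore not detectable at this depth, and these intervals cover counting error only. Grm8 averaged 3.25 ± 1.73 CPM (SD, n = 2) in control liver, 0.153 ± 0.0235 (SD, n = 2) in KAP1-deleted liver and 0.0985 ± 0.0222 (SD, n = 2) in tumour. Against control liver the log2 difference was -4.00 ± 0.82 in KAP1-deleted liver and -4.48 ± 0.83 in tumour, and -0.48 ± 0.29 between tumour and KAP1-deleted liver. With so few reads the prior count pulls these log2 values towards zero, and the ratio of mean CPM was 21.2-fold for KAP1-deleted liver and 32.9-fold for tumour.

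Susd4 had another course. Control livers 1 and 2 read 22.2 and 8.98 CPM (769 and 529 reads), KAP1-deleted livers 4.06 and 5.97 (179 and 282 reads), and tumours 0.456 and 1.01 (33 and 53 reads). KAP1-deleted livers were below both control livers, but the gap between control liver 2 and KAP1-deleted liver 2 was a ratio of 1.5. The means were 15.6 ± 9.34 CPM (SD, n = 2), 5.02 ± 1.35 (SD, n = 2) and 0.732 ± 0.391 (SD, n = 2). KAP1-deleted liver kept 32.2% of the control mean, so the word lost does not describe Susd4 there, whereas tumour kept 4.7%. The log2 difference from control liver was -1.51 ± 1.0 in KAP1-deleted liver and -4.30 ± 1.20 in tumour. Between tumour and KAP1-deleted liver it was -2.79 ± 0.86, a 6.85-fold lower mean.

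**Figure D1:**
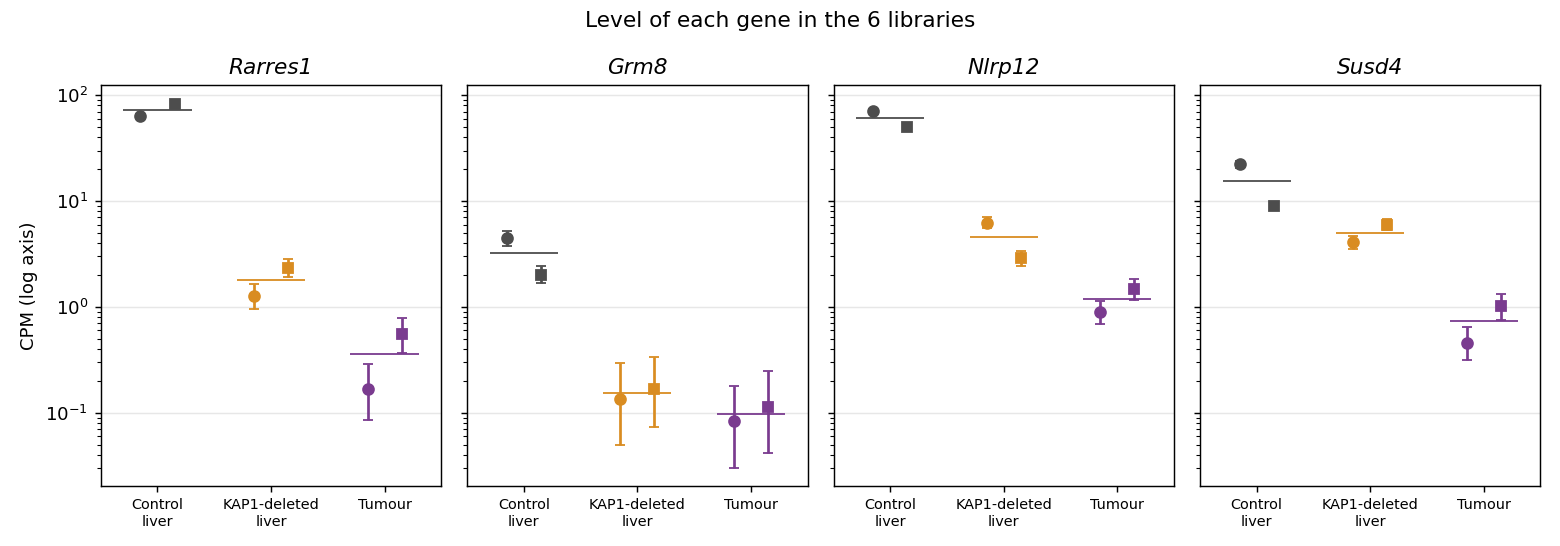
CPM of Rarres1, Grm8, Nlrp12 and Susd4 on a log axis in the 6 libraries. Circles are replicate 1 and squares replicate 2, bars are exact 95% counting intervals, horizontal lines are group means. Control livers are highest in all 4 panels, Grm8 has overlapping intervals in KAP1-deleted liver and tumour, and Susd4 keeps 4.06 and 5.97 CPM in the KAP1-deleted livers.

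In each of the 3 comparisons, all 4 genes were lower in the first group with no overlap between libraries. Among all 17558 genes tested this held for 14.6% in KAP1-deleted against control liver, 34.8% in tumour against KAP1-deleted liver and 29.9% in tumour against control liver. The genes were picked for this pattern, so nothing is read from that count. By fitted log2 fold change from the lowest of 17558 genes, Rarres1 ranked 2, Grm8 7, Nlrp12 13 and Susd4 138 in KAP1-deleted against control liver. In tumour against control liver the ranks were 4 for Rarres1, 12 for Nlrp12, 20 for Grm8 and 28 for Susd4. In tumour against KAP1-deleted liver the order turned, with Susd4 at 158, Rarres1 at 272, Nlrp12 at 459 and Grm8 at 3082. The 2 comparisons with control liver share the control libraries, and both comparisons with KAP1-deleted liver share those libraries, so the ranks are not independent of each other.

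**Figure D2:**
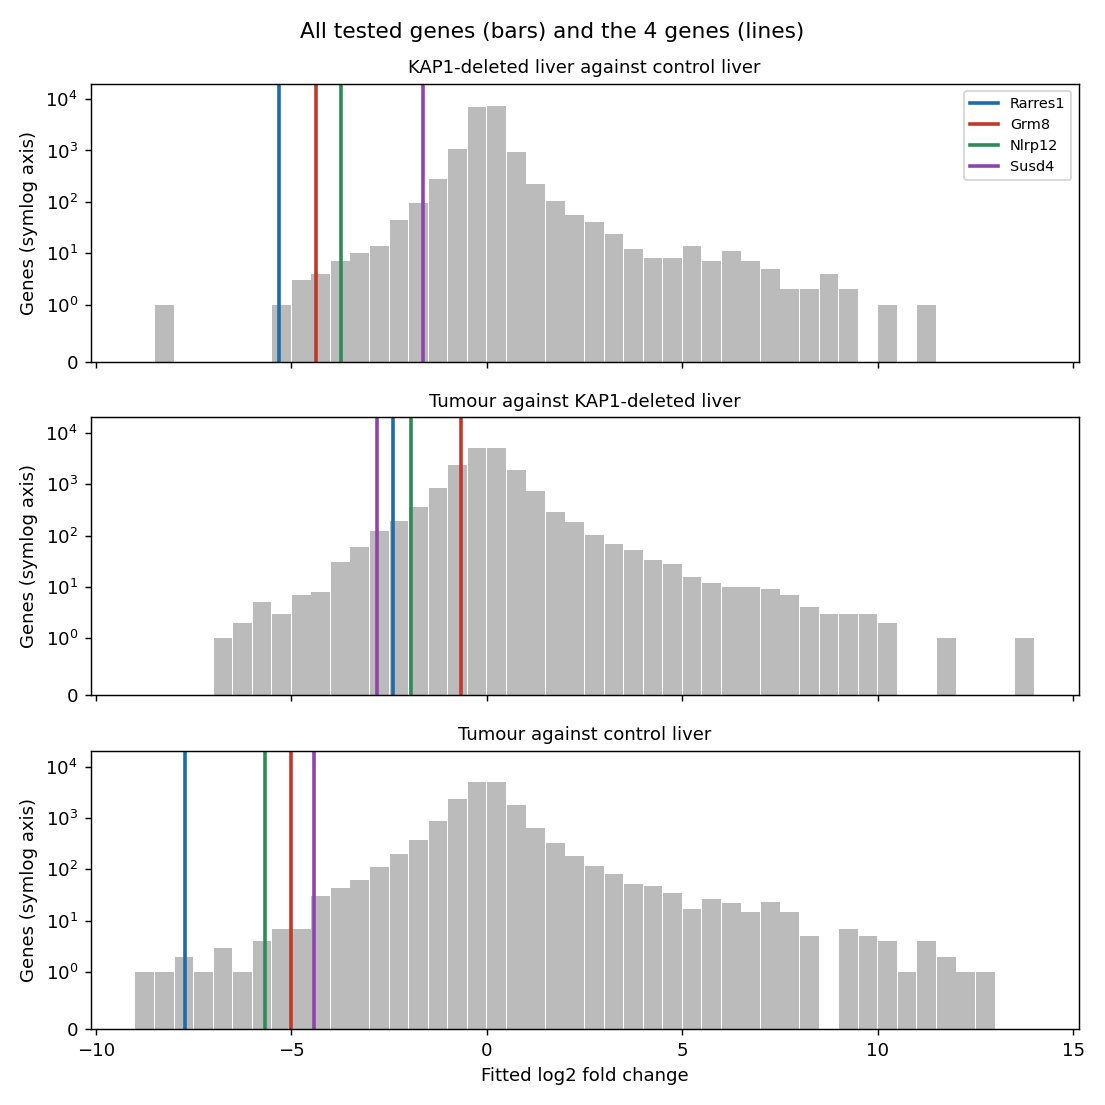
Number of genes per bin of fitted log2 fold change (horizontal axis) for the 17558 genes tested, on an axis that is linear up to 1 gene and logarithmic above, with a line for each of Rarres1, Grm8, Nlrp12 and Susd4. Susd4 is nearest to zero of the 4 in KAP1-deleted against control liver, and Grm8 is nearest to zero in tumour against KAP1-deleted liver.

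Replicates of a group differed by up to 3.33 times. In control liver, replicate 1 was the higher library for Grm8 (2.21 times), Nlrp12 (1.42 times) and Susd4 (2.47 times), and replicate 2 for Rarres1 (1.28 times). Both Grm8 and Susd4 therefore had a spread between control livers that Rarres1 and Nlrp12 did not show to that size. In tumour, replicate 2 was the higher library for all 4, by 3.33 times for Rarres1, 2.21 for Susd4, 1.65 for Nlrp12 and 1.38 for Grm8. In KAP1-deleted liver, replicate 1 was higher for Nlrp12 (2.17 times) and replicate 2 for Rarres1 (1.83), Susd4 (1.47) and Grm8 (1.24).

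Levels of different genes were compared per kilobase of exon, with exon lengths of 1325 bases for Rarres1, 9898 for Grm8, 7545 for Nlrp12 and 3858 for Susd4 from the GRCm38 annotation. In control liver Rarres1 led with 54.9 CPM per kilobase, followed by Nlrp12 with 8.04, Susd4 with 4.04 and Grm8 with 0.328. Rarres1 was above 96.2% of the 16523 tested genes that have a length, Nlrp12 above 81.6%, Susd4 above 68.8% and Grm8 above 20.5%. The libraries of neighbouring genes in this order did not overlap, with the lower Nlrp12 library at 6.64 CPM per kilobase and the higher Susd4 library at 5.75. In KAP1-deleted liver Rarres1 (0.959 and 1.76 CPM per kilobase) and Susd4 (1.05 and 1.55) overlapped at the top, above Nlrp12 (0.382 and 0.827) and Grm8 (0.0138 and 0.0171). In tumour Rarres1 (0.125 and 0.417), Susd4 (0.118 and 0.262) and Nlrp12 (0.119 and 0.197) could not be ordered, and Grm8 (0.00837 and 0.0115) was below all of them.

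In bulk tissue, fewer cells of a type and less RNA per cell cannot be told apart, so summed levels of marker genes are given beside the 4 genes. The 14 hepatocyte markers measured summed to 124000 to 130000 CPM in control livers, 123000 to 128000 in KAP1-deleted livers and 63800 to 80000 in tumours, with none at 0. Between control and KAP1-deleted liver the hepatocyte sums overlapped, and the mean of Rarres1, Grm8 and Nlrp12 was lower by 13.3-fold or more. A sum can hide single markers: in that comparison 6 of the 14 had a log2 fold change below 0 (median 0.12). In tumour against control liver 13 did (median -0.89). Tat averaged 797 CPM in control liver, 335 in KAP1-deleted liver and 71.3 in tumour, and Cps1 6010, 6870 and 958. The part of hepatocytes in the levels of Rarres1, Grm8 and Nlrp12 was not tested. In tumour the 12 Kupffer cell and macrophage markers summed to 357 to 532 CPM against 736 to 770 in control liver and 779 to 785 in KAP1-deleted liver. Sums of the 12 endothelial markers were 317 to 349 CPM in tumour, 505 to 555 in control liver and 550 to 558 in KAP1-deleted liver. Nlrp12 is a gene of neutrophils and monocytes elsewhere in the body, and the 12 markers of those cells summed to 14.2 CPM in each control liver. They summed to 15.8 to 16.2 CPM in KAP1-deleted liver and 11.2 to 18.0 in tumour, with 1, 2 and 2 of them at 0 in control liver, KAP1-deleted liver and tumour. The part of these cells in the Nlrp12 level was not tested. The remaining sums were, for control liver, KAP1-deleted liver and tumour in turn, 400 to 453, 364 to 477 and 219 to 375 CPM for 12 stellate cell markers. They were 19.0 to 35.3, 31.1 to 37.9 and 5.29 to 24.0 CPM for 10 cholangiocyte markers, with 1 marker at 0 in tumour. They were 2.31 to 3.78, 2.45 to 3.64 and 0.814 to 0.952 CPM for 7 mesothelial markers, of which 1, 1 and 2 were at 0. They were 29.8 to 38.2, 31.3 to 40.7 and 33.3 to 68.2 CPM for 11 lymphocyte markers. The part of the lower marker sums in the tumour levels of the 4 genes was not tested.

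The counted identity of the genes was examined next, since related or overlapping genes can take each other's reads. All 31-base words of Rarres1 and Susd4 occur in no other gene of the GRCm38 reference transcripts, as do 99.3% of those of Grm8 and 95% of those of Nlrp12. Exons of Nlrp12 overlap 6 microRNA genes of the miR-290 cluster on the opposite strand, by 69 to 84 bases each. The entry of Mir294 held 32 and 21 reads in control livers 1 and 2 and 0 reads in the 4 other libraries. Mir293 held 28 and 17 reads in control livers, 2 and 0 in livers with the deletion, and 0 in both tumours. Mir295 held 18 and 10 reads in control livers and 0 elsewhere. These entries therefore had their reads where Nlrp12 was high, and since no source used here gives the strand setting of the counting, reads of Nlrp12 and of the microRNA genes cannot be told apart. Mir592 lies inside an exon of Grm8 on the same strand, over 96 bases, and held 0 reads in all 6 libraries. Reads that fall on both genes can be set aside as ambiguous, so this 0 is no check of the Grm8 counts.

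No neighbouring gene of Rarres1 or Grm8 on the chromosome was called lower in any comparison of the reported fit. Mfsd1, next to Rarres1, had a log2 fold change of -0.76 from KAP1-deleted liver to tumour (adjusted p = 0.0824 by edgeR). Some alternatives called it. The nearest tested genes of Rarres1 on chromosome 3 are Rsrc1, Gfm1 and Lxn on one side and Mfsd1, Schip1 and Gm10040 on the other. Lxn encodes latexin, the relative of Rarres1, and measured 2.11 ± 0.244 CPM (SD, n = 2) in control liver, 1.52 ± 0.26 (SD, n = 2) in KAP1-deleted liver and 1.72 ± 0.0708 (SD, n = 2) in tumour, with adjusted p of 1, 0.706 and 0.527 by edgeR in the 3 comparisons. None of the 6 neighbours of Rarres1 passed edgeR's test at an adjusted p of 0.05 in the comparisons with control liver. Gm10040 rose by 0.81 on the log2 scale from KAP1-deleted liver to tumour (adjusted p = 0.034 by edgeR), but only 9.87% of its words are its own. That call was lost without KAP1-deleted liver replicate 1 (0.0844) or 2 (0.281), and without tumour replicate 1 (0.149) or 2 (0.0915). The neighbours of Grm8 on chromosome 6, Hyal5, Tmem229a, Pot1a, 6530409C15Rik, Zfp800 and Gcc1, gave no call in any comparison, with adjusted p of 0.126 or more.

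Nlrp12 and Susd4 each had a neighbour that fell in tumour. Beside Nlrp12 on chromosome 7, Gm7353 gave no call in any comparison and the microRNA entries lie within the gene itself. Mir293 and Mir294 passed edgeR's test in tumour against control liver (adjusted p = 0.0165 and 0.0141), on the few reads given above. Both calls were lost without tumour replicate 1 (0.0823 and 0.0684) or tumour replicate 2 (0.0612 and 0.0506), and DESeq2 gave an adjusted p of 0.294 for Mir294. Myadm, a membrane protein of myeloid cells, fell by 0.76 on the log2 scale in tumour against control liver (adjusted p = 0.031 by edgeR). Gene totals alone and the fit of those 2 groups ended that call. Without control replicate 2 the adjusted p of Myadm was 0.104, without KAP1-deleted liver replicate 1 or 2 it was 0.0742 or 0.0724, and without tumour replicate 1 or 2 it was 0.114 or 0.0952. Next to Susd4 on chromosome 1, Capn8, a calpain protease, measured 9.26 and 3.41 CPM in the control livers, 3.29 and 3.73 in those with the deletion, and 0.193 and 0.495 in the tumours. Capn8 fell by 4.23 on the log2 scale from control liver to tumour (adjusted p = 0.00652 by edgeR), and leaving out any 1 library kept that call. From KAP1-deleted liver to tumour it fell by 3.39 (adjusted p = 0.0162 by edgeR), a call lost without KAP1-deleted liver replicate 1 (0.0636) or 2 (0.0893) or without tumour replicate 1 (0.0789). The other tested neighbours of Susd4, which are Trp53bp2, Capn2, Tlr5, Dusp10 and Hlx, gave no call, with adjusted p of 0.0932 or more.

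**Figure D3:**
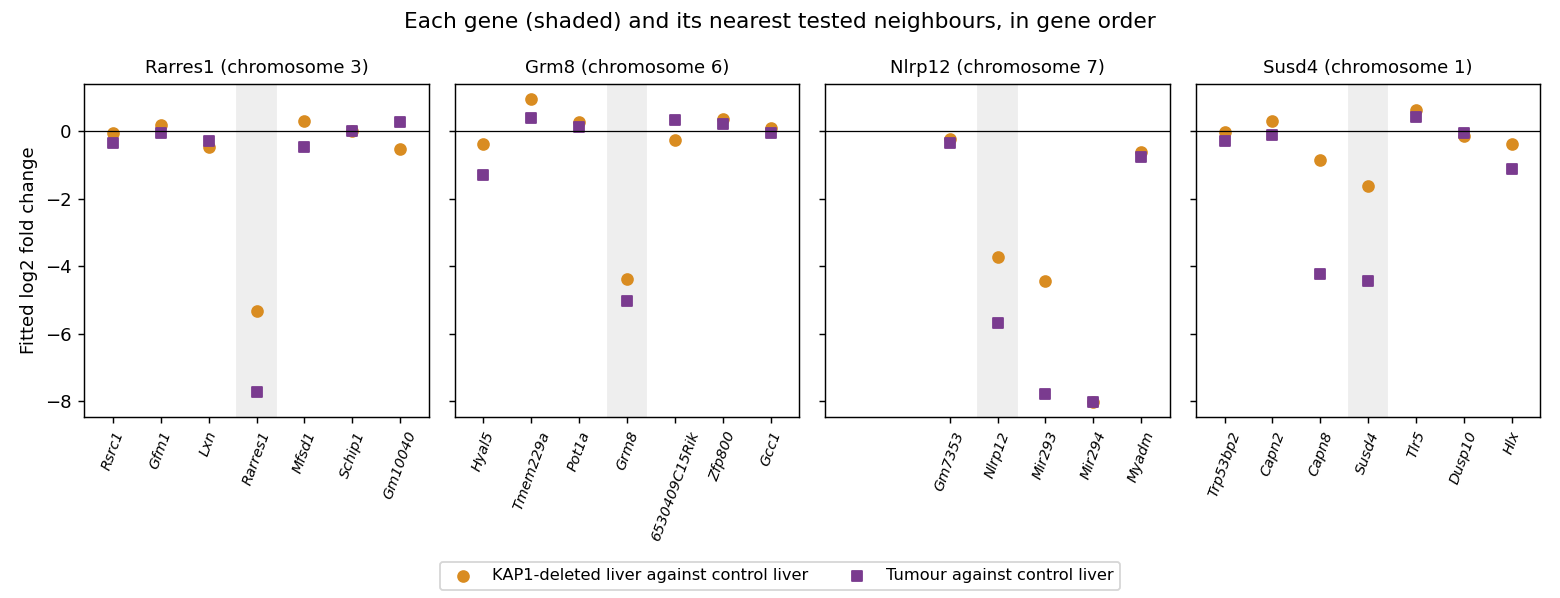
Fitted log2 fold change (vertical axis) of each of the 4 genes, shaded, and of up to 3 tested genes on each side in chromosome order, for KAP1-deleted liver (circles) and tumour (squares) against control liver. Values of Mir293 and Mir294 rest on groups with 0 reads, or 2 reads for Mir293 in KAP1-deleted liver, and depend on the prior count of the fit. Capn8 stands with Susd4 in tumour, at -4.23.

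Profiles over the 6 libraries were compared by the root mean square difference of log2 CPM from the control mean, over 13681 tested genes whose symbol is no predicted-gene or pseudogene name. The genes listed were picked for their likeness, so their values describe them without a test. Rarres1 and Nlrp12 were at a distance of 1.63, Rarres1 and Grm8 at 2.1, and Nlrp12 and Grm8 at 0.81. Susd4 was at 1.46 from Grm8, 1.63 from Nlrp12 and 3.01 from Rarres1, the widest distance of the 6 pairs. Rarres1 was thus at 1.63 or more from each of the other 3 genes. The nearest 5 profiles to Rarres1 were more distant than those of the other 3 genes, with Nlrp12 at 1.63, Dct and Gcnt4 at 1.89, Grm8 at 2.1 and Fam47e at 2.12. The prior count limits how low the profile of a faint gene can go, which adds to these distances. By fitted log2 fold change in tumour against control liver, Eps8l1 (-8.62), Mir294 (-8.01) and Mir293 (-7.78) were below Rarres1 (-7.73), with 0 reads in the tumours.

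Grm8 and Nlrp12 had closer companions. For Grm8 the nearest 5 were Mir294 (0.31, on the few reads given above), Cyp7b1 (0.57), Zap70 (0.64), Eps8l1 (0.7) and Mir293 (0.74). Cyp7b1, an oxysterol hydroxylase of bile acid synthesis, is among the listed male-biased liver genes. It measured 270 and 114 CPM in control livers 1 and 2, 19.2 and 20.3 in those with the deletion, and 10.7 in both tumours. Like Grm8, Cyp7b1 was higher in control replicate 1 than in control replicate 2. Zap70, a kinase of T cell receptor signalling, measured 12.1 and 9.5 CPM in the control livers, 0.817 and 1.86 in those with the deletion, and 0.345 and 0.514 in the tumours. The 11 lymphocyte markers had overlapping sums in control and KAP1-deleted liver, and the part of lymphocytes in the Zap70 level was not tested. For Nlrp12 the nearest were Gcnt4 (0.48), Fam47e (0.77), Grm8 (0.81), Eps8l1 (0.83) and Tff3 (0.87). Gcnt4, a glycosyltransferase, measured 8.08 and 4.89 CPM in the control livers, 0.999 and 0.508 in those with the deletion, and 0.0414 and 0.171 in the tumours.

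Susd4 had a different set of nearest genes, in which the step from KAP1-deleted liver to tumour was the larger one. They were F11 and Pck1 at 0.47, Kyat3 and Slc2a5 at 0.51, and its neighbour Capn8 at 0.52. F11, coagulation factor XI made by hepatocytes, measured 27.3 and 29.3 CPM in the control livers, 9.69 and 12.1 in those with the deletion, and 0.649 and 2.25 in the tumours. Pck1, the gluconeogenic enzyme PEPCK, measured 2780 and 1750 CPM in the control livers, 1200 and 1370 in those with the deletion, and 75.8 and 179 in the tumours. Tumour replicate 1 was the lower of the tumours for Susd4 and for these 5 genes.

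**Figure D4:**
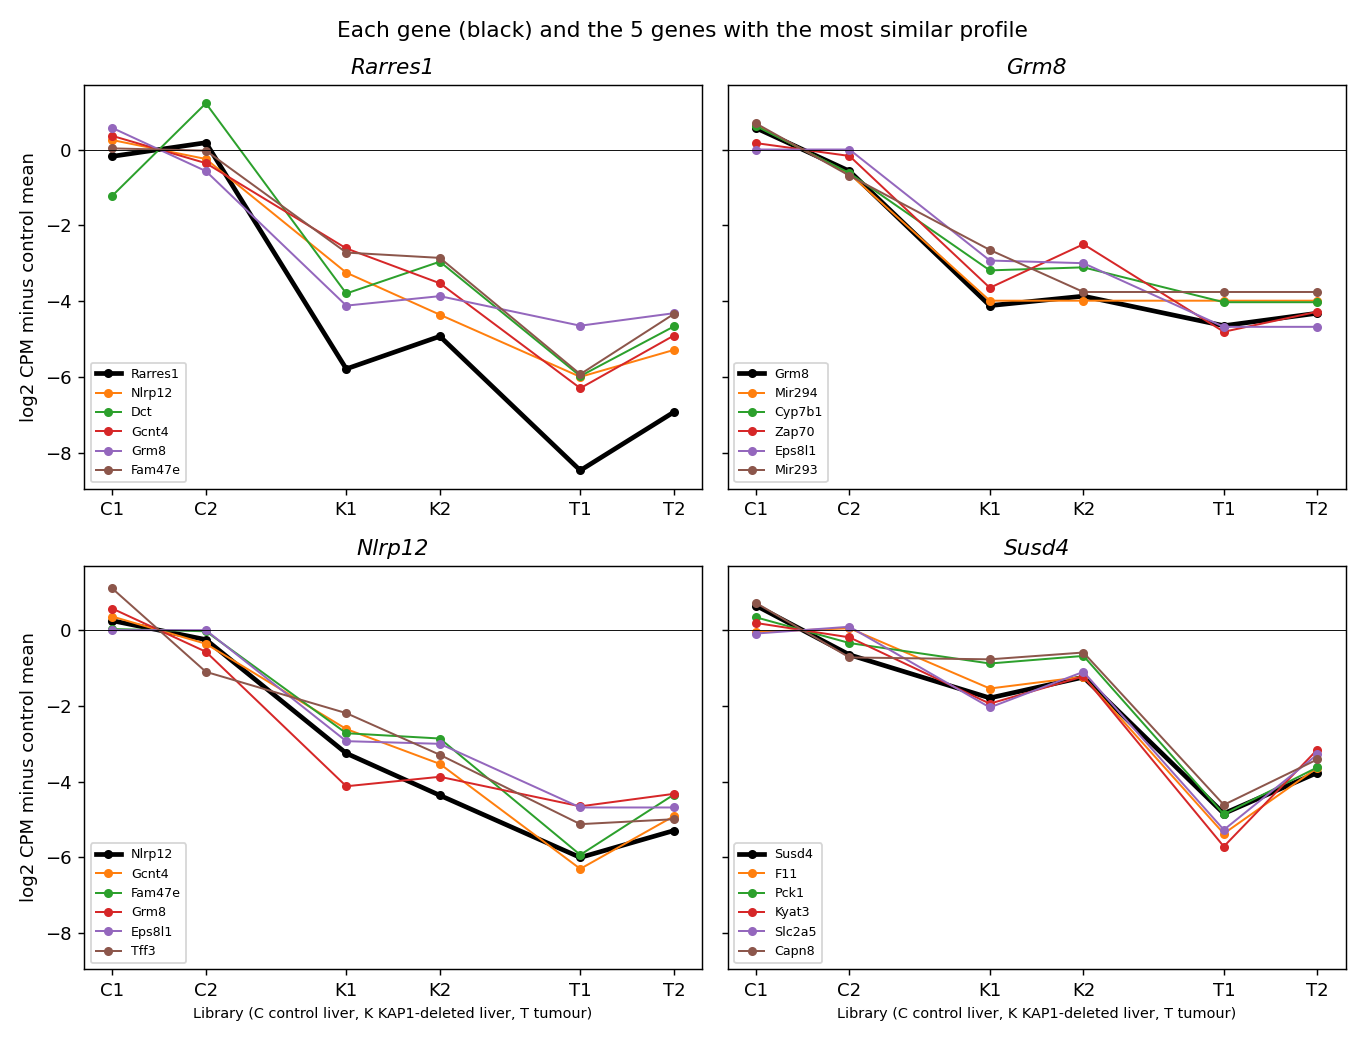
Log2 CPM minus the control mean (vertical axis) in control livers (C1, C2), KAP1-deleted livers (K1, K2) and tumours (T1, T2), for each of the 4 genes in black and its 5 most similar genes in colour. No plotted profile falls as low as that of Rarres1 on this scale, and the companions of Susd4 have their larger step between K and T. Tumour values of Eps8l1, Mir293 and Mir294 (0 reads), Tff3 (1 read) and Dct (0 and 3 reads) are limited by the prior count.

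Close relatives of Nlrp12 and Susd4 were measured beside them. Nlrp6, an epithelial NOD-like receptor, measured 52.1 ± 13.1 CPM (SD, n = 2) in control liver, 38.7 ± 5.58 (SD, n = 2) in KAP1-deleted liver and 34.4 ± 13.7 (SD, n = 2) in tumour. Nlrp3, the inflammasome sensor, averaged 1.13, 1.22 and 1.11 CPM in the same order. Susd1 averaged 7.67, 7.60 and 10.6 CPM, Susd2 1.84, 1.38 and 0.963, and Susd3 0.157, 0.281 and 0.166, while Susd6 lay between 30.5 and 37.1. None of Nlrp3, Nlrp6, Susd1, Susd2, Susd3 and Susd6 passed edgeR's test in the 3 comparisons, Susd5 was too low to be tested, and Susd1 passed with gene totals alone in both tumour comparisons.

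Genes of the pathways around the 4 genes were counted in lists, with the 4 genes left out. From control to KAP1-deleted liver, the step at which Rarres1, Grm8 and Nlrp12 were already low, edgeR called 0 genes in each pathway list. These were 32 retinoid genes, 9 genes of latexin and tubulin tail processing, 6 ionotropic glutamate receptors, 16 genes of inhibitory G protein signalling, 24 NOD-like receptor and inflammasome genes, 30 NF-kappaB and JNK genes, 22 sushi domain and complement regulator genes and 22 complement cascade genes. An unadjusted p under 0.05 was reached by 4, 0, 0, 1, 1, 1, 0 and 1 of them in that order, beside 956 of all 17558 genes. DESeq2 called 1 retinoid, 1 G protein and 1 complement gene, and edgeR without control replicate 2 called 1 retinoid and 1 complement gene. With no filter, edgeR called 3 complement genes and 1 retinoid gene lower, and 1 NF-kappaB and JNK gene and 1 G protein gene higher. Over all genes tested 0.0968% were called lower, 0.239% higher and 0.336% in either direction, with a median log2 fold change of 0.00. Medians of these pathway lists lay between -0.29 for the ionotropic receptors and 0.15 for the sushi domain genes. Sex-biased liver genes were listed too. Of 18 male-biased genes 1 was called higher and 1 lower at this step, and of 19 female-biased genes 1 higher. From control liver to tumour 6 male-biased genes were called lower and 1 higher (median log2 fold change -1.74). Of the female-biased genes 5 were called higher and 0 lower, but 10 of 19 were below 0 (median -0.03). DESeq2 called 10 male-biased genes lower and 1 higher, and 3 female-biased genes lower and 5 higher. Over all genes edgeR called 7.76% lower and 6.15% higher. From KAP1-deleted liver to tumour 6 male-biased genes were called lower and 1 higher (median -1.6). There 3 female-biased genes were called lower and 2 higher (median -0.97), beside 6.64% and 4.8% of all genes. The part of sex in these levels was not tested.

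Of the retinoid genes around Rarres1, some fell in tumour, where the hepatocyte marker sums given above were lower too. Sums of the stellate cell markers in tumour (219 to 375 CPM) were below those of control liver but overlapped those of KAP1-deleted liver (364 to 477 CPM). In each tumour comparison 8 of the 12 stellate cell markers had a log2 fold change below 0. The part of those cells in the list counts of tumour was not tested. From control liver to tumour 6 of 32 fell and none rose (median log2 fold change -0.72), beside 7.76% of all genes called lower, 6.15% higher and a median of -0.02. From KAP1-deleted liver to tumour 5 fell and none rose (median -0.51), beside 6.64% of all genes called lower, 4.8% higher and a median of -0.03. Against control liver 13 were lower without control replicate 1 and 3 without control replicate 2, 1 was higher and 3 lower without either tumour replicate, and DESeq2 gave 2 higher and 11 lower. Against KAP1-deleted liver 11 and 8 were lower without control replicates 1 and 2, and 1 was lower without KAP1-deleted liver replicate 1 or 2. Without tumour replicate 1 the calls were 1 higher and 1 lower, and without tumour replicate 2 they were 2 higher and 2 lower. A block for the mouse gave 1 higher and 13 lower, DESeq2 gave 1 higher and 9 lower, and gene totals alone gave 2 higher and 1 lower. Cyp26b1, an enzyme that breaks down retinoic acid, measured 4.30 and 3.89 CPM in the control livers, 4.90 and 4.66 in those with the deletion, and 0.331 and 0.533 in the tumours. It fell from control liver to tumour by 3.26 (adjusted p = 0.00108) and from KAP1-deleted liver to tumour by 3.48 (adjusted p = 0.00126) on the log2 scale by edgeR, in every alternative. Between control and KAP1-deleted liver the log2 value of Cyp26b1 was 0.23 (adjusted p = 1.0 by edgeR). The retinoid X receptor genes Rxra and Rxrg and the retinol dehydrogenase Rdh11 also fell from control liver to tumour, and each of these calls was lost under some alternatives. Rdh11 averaged 30.9 CPM in control liver, 12.6 in KAP1-deleted liver and 8.56 in tumour. Its mean was thus already lower in KAP1-deleted liver, without a call there (adjusted p = 0.446 by edgeR). Of the 9 tubulin tail genes, 1 fell against control liver (Ttl) and 1 against KAP1-deleted liver (Svbp), beside the same 7.76% and 6.64% of all genes, and gene totals alone gave 2 higher and none lower against control liver. The Ttl call was lost without control replicate 2, and both were lost without each KAP1-deleted or tumour library.

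Around Grm8, other glutamate receptors and genes of its signalling were counted in tumour, where 13.9% of all genes were called in either direction against control liver and 11.4% against KAP1-deleted liver. Gria3, an AMPA receptor subunit, measured 2.42 and 1.65 CPM in the control livers, 1.77 and 1.12 in those with the deletion, and 14.4 and 18.9 in the tumours. It rose by 3.05 from control liver (adjusted p = 0.00139) and by 3.53 from KAP1-deleted liver (adjusted p = 0.00134) on the log2 scale by edgeR, in every alternative, where Grm8 had 6 reads in each tumour. Of the 6 ionotropic receptors, Grid1 fell in both tumour comparisons and Grin3b against control liver. The call of Grin3b was lost without each of the 6 libraries and with DESeq2. Gria3 was the only call left without control replicate 2 in the first comparison and without KAP1-deleted liver replicate 2 or tumour replicate 1 in the second. Of 16 genes of inhibitory G protein signalling, Adcy1 rose and Adcy5 and Adcy9, which like it encode adenylyl cyclases, fell from control liver to tumour. That count, 3 of 16, was 0 without control replicate 2 and 1 without KAP1-deleted liver replicate 1 or 2 or tumour replicate 2. Against KAP1-deleted liver 2 fell, Adcy5 and Rgs16, and fewer were called without KAP1-deleted liver replicate 1 or 2 or tumour replicate 1. The block gave 5 calls, and gene totals alone gave 4 higher and none lower. Rgs16 averaged 25.4 CPM in control liver, 44.3 in KAP1-deleted liver and 23.5 in tumour. Between control liver and tumour it gave no call (adjusted p = 0.701 by edgeR).

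Of the 24 NOD-like receptor and inflammasome genes around Nlrp12, Casp4 rose and Naip1 and Gsdmd fell from control liver to tumour, and Ciita rose and Naip1 fell from KAP1-deleted liver. These are 3 and 2 of 24 genes, beside 13.9% and 11.4% of all genes called. The first count was 0 without control replicate 2 and 1 without each KAP1-deleted or tumour library. The second was 0 without KAP1-deleted liver replicate 1 or 2 or tumour replicate 2, 1 without tumour replicate 1 and 4 with the block. Of 30 NF-kappaB and JNK genes, Ikbkg, the regulatory subunit of the kinase that frees NF-kappaB, rose in both tumour comparisons, and Junb, a subunit of the transcription factor AP-1, fell from KAP1-deleted liver. Junb averaged 8.35 CPM in control liver, 15.1 in KAP1-deleted liver and 6.1 in tumour. Between control liver and tumour it gave no call (adjusted p = 0.196 by edgeR). The 1 and 2 calls among 30 genes stand beside the same shares of all genes. The call of Ikbkg against control liver was lost without any library other than control replicate 2. Against KAP1-deleted liver the list had 4 calls without control replicate 2, 1 without KAP1-deleted liver replicate 1 or 2 or tumour replicate 2, 0 without tumour replicate 1 and 4 with the block. Gene totals alone gave 10 higher and 1 lower in that list.

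Of the 22 sushi domain and complement regulator genes that share their module or role with Susd4, 0 passed edgeR's test in either tumour comparison, where 6 and 6 had an unadjusted p under 0.05, beside 5104 of all 17558 genes against KAP1-deleted liver and 5259 against control liver. DESeq2 called 3 lower against KAP1-deleted liver and 1 lower against control liver, and the block called 3 lower. Without control replicate 1 or 2, edgeR called 2 against KAP1-deleted liver, and without tumour replicate 2 it called 1. Against control liver it called 1 without control replicate 1. Of 22 complement cascade genes, 7 fell from control liver to tumour, and 7 fell and 1 rose from KAP1-deleted liver, with medians of -0.49 and -0.60. Of all genes 7.76% were called lower in the first comparison and 6.64% lower and 4.8% higher in the second, with medians of -0.02 and -0.03. They included Mbl1, a lectin that starts the cascade, its protease Masp2, C4b and C9, which fell in both. The first count was 4 without control replicate 2 and 2 without tumour replicate 1. The second was 0 without KAP1-deleted liver replicate 1, 1 without replicate 2, 3 without tumour replicate 1, 4 without tumour replicate 2, and 4 by gene totals alone. Hepatocytes make most of these components, and the hepatocyte marker sum was lower in tumour, as given above. The part of hepatocytes in the complement calls was not tested.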

How the data were processed

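Total RNA of liver or liver tumour was made into stranded TruSeq libraries, per the labels' protocols. Their extraction text speaks of cell lines, but the samples are tissue by their labels. The deposited counts are whole reads per Ensembl gene and library, made by the authors with TopHat and HTSeq 0.6.1 on build mm9, per the submitters' processing notes. For the aligner version, the gene annotation, the strand setting and read filters, the sources used here give nothing. The batch label is the same for the 6 libraries.

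Entries that name no gene (20.91% to 36.73% of counted reads for reads outside genes, 1.73% to 2.87% for ambiguous reads) were left out. Symbols, lengths, gene order and 31-base words came from the GENCODE annotation and transcripts of GRCm38, which is not the build of the counts, and matched 32919 of 37991 identifiers. Promoter sequences came from RefSeq. The filterByExpr filter of edgeR (by group, at least 10 counts and a total of 15) left 17558 genes, which were scaled with TMM and tested with edgeR 4.0.16 in R 4.3.3 (robust quasi-likelihood, 1 mean per group, 6 libraries, 3 residual degrees of freedom). Two-sided p-values were adjusted over the 17558 genes by Benjamini-Hochberg, and an adjusted p under 0.05 was a call. The script was tested on simulated data. TMM factors were 0.864 to 0.948 in livers and 1.31 and 1.22 in tumours.

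The 4 genes, the 19 gene lists and the tests were chosen with earlier results of these data known. Named are the 4 genes, Trim28, the 5 most similar profiles and up to 3 tested neighbours per side of each gene, up to 4 called members of a list per comparison, and family relatives. The text describes part of these. Within groups, replicates differed beyond counting noise, with a chi-square over its degrees of freedom of 86 to 335. The mouse codes pair each tumour with a KAP1-deleted liver. The deviations of these pairs had a correlation of 0.185 over genes, and the model reported has no block. Alternatives were DESeq2 size factors and gene totals for scaling, no filter, a mean CPM of at least 1, DESeq2 1.42.0, fits of the 2 groups compared, the mouse as a block, prior counts of 0.5 and 5, and leaving out each library.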

Additional observations from a re-analysis of the deposited data

How the results depend on the processing

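All 12 differences of Rarres1, Grm8, Nlrp12 and Susd4 kept their sign under every alternative that could be computed. Their log2 ranges against control liver in KAP1-deleted liver were -5.79 to -4.93 for Rarres1, -4.57 to -3.45 for Grm8, -4.35 to -3.25 for Nlrp12 and -2.18 to -0.86 for Susd4. Against control liver in tumour they were -8.47 to -6.93, -5.04 to -3.95, -6.01 to -5.18 and -4.95 to -3.67 in the same order. The difference of Grm8 between tumour and KAP1-deleted liver was -0.08 with gene totals alone, and Grm8 did not pass the filter in the fit of those 2 groups. Counts of genes called moved more. In KAP1-deleted against control liver they were 59, and 571 with no filter, 34 with a mean CPM of at least 1, 230 with the DESeq2 test, 20 with only the 2 groups and 30 to 75 when 1 library was left out. In tumour against KAP1-deleted liver they were 2007, and 4833 with gene totals alone, 3819 with no filter and 640 to 2715 when 1 library was left out. In tumour against control liver they were 2443, and 4584 with gene totals alone, 4115 with no filter and 1103 to 2620 when 1 library was left out. Gene totals alone moved the median log2 fold change to 0.50 and 0.45 in the tumour comparisons and the share of higher calls from 42.0% to 89.2% and from 44.2% to 86.3%. Without tumour replicate 1 those shares were 64.0% and 60.1%. Leaving out a library leaves fewer samples to estimate the spread, and the cause of the other shifts was not tested. With the replicate block by mouse, 3893 genes were called in tumour against KAP1-deleted liver, on 1 residual degree of freedom. The block was not run for comparisons with control liver, where no mouse gave both tissues. At a depth of 39723997 to 62178752 counts, Grm8 rests on 6 to 8 reads in KAP1-deleted livers and tumours.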
